A study of Homo sapiens with 54 samples.

Results

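The genes described here are 44 genes of the machinery that segregates chromosomes in mitosis, taken by name from the 55906 gene rows listed in each of 4 tables of transcript abundance. They comprised 12 kinetochore genes, 5 spindle checkpoint genes, 4 genes of the chromosome passenger complex, 4 condensin genes, 7 mitotic kinases, phosphatases and anaphase regulators, 8 genes of the spindle and cytokinesis, 2 genes of mitotic chromosomes and 2 transcription factors. All 44 were found in every table, and all 44 passed the filter on low values in each of the 4 cell lines, so that none was lost to it.

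The kinetochore is the protein assembly built on each centromere that holds microtubules of the spindle. The spindle checkpoint delays anaphase while a kinetochore is unattached, the chromosome passenger complex, with its kinase Aurora B, corrects faulty attachments, and condensin compacts the chromatids so that they can be pulled apart. In dividing cells the transcripts of most of these genes rise together in late S phase, G2 and mitosis and are low in G1, through the DREAM complex and through MuvB with the transcription factors B-MYB (encoded by *MYBL2*) and *FOXM1*.

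The study perturbed *TRA2A* and *TRA2B*, 2 paralogous splicing factors that bind exonic enhancers, in 4 human cancer cell lines, and polyadenylated RNA of 54 samples in 18 groups of 3 was sequenced as strand-specific paired-end libraries. The lung cancer lines A549 and NCI-H23 stably expressed Zim3-dCas9, a nuclease-dead Cas9 fused to a repressor domain (CRISPRi), and received guides against control loci (Control KD), *TRA2A* (*TRA2A* KD), *TRA2B* (*TRA2B* KD) or both genes (*TRA2A/B* DKD), with collection 5 days after transduction. The glioma lines LN229 and LN319 overexpressed luciferase (Luc) or *TRA2B* (TRA2B-OE), and lentivirus brought Cas9 with guides against control loci, *TRA2A* or *TRA2B* into the Luc cells (Control KO, *TRA2A* KO and *TRA2B* KO) and against control loci or *TRA2A* into the TRA2B-OE cells, with collection after 7 days. All knockdown groups thus carried the repressor and all knockout groups carried Cas9 and an overexpressed gene, also in the controls. Transduced populations were used, in which edited and unedited cells of a knockout are mixed, and nothing in the sample labels says whether replicates were separate cultures, so p-values measure the spread between these samples only.

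The values are TPM, a normalized share of each library's own transcripts that keeps no record of depth. A library summed to between 928908 and 964610 TPM over the listed genes, and 0 libraries were identical to another. The targeted genes followed the labels in the double knockdowns, and their levels in the single knockdowns are not given here. *TRA2A* stood at 69.5, 79.4 and 76.3 TPM in A549 Control KD and at 11.1, 10.3 and 9.75 TPM in *TRA2A/B* DKD, and *TRA2B* at 138, 140.1 and 134 and 24.9, 16.9 and 25.4 TPM. In NCI-H23 *TRA2A* fell from 102, 107 and 105 TPM to 19.9, 21.4 and 23.1 TPM, and *TRA2B* from 80.3, 103 and 93.8 TPM to 24.1, 21.9 and 23.8 TPM. In the knockouts a transcript with a small insertion or deletion can still be counted, so that these levels check the labels only in part. Of the 5 epithelial markers looked at, *KRT8* and *KRT18* were high in A549 (2779 and 2804 TPM) and in NCI-H23 (772 and 1155 TPM). *CDH1* was lower (21.7 TPM and 1.94 TPM), as were *EPCAM* (2.76 TPM and 1.28 TPM) and *KRT19* (5.85 TPM and 0.077 TPM). Of the 5 glial and neural stem markers, *SOX2* was present in both glioma lines (81.9 TPM in LN229 and 402 TPM in LN319) and *GFAP* near the floor (2.84 and 2.13 TPM), while *NES* (273 and 7.55 TPM), *OLIG2* (9.78 and 0.010 TPM) and *S100B* (455 and 0.348 TPM) were low in LN319. LN319 also held the epithelial transcripts *CDH1* (123 TPM) and *KRT8* (120.4 TPM), so that the markers go only partly with the labelled tissues.

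In the control groups all 44 genes were expressed. Their median level rose from 47.1 TPM in A549 Control KD through 62.6 TPM in NCI-H23 and 74.4 TPM in LN229 Luc Control KO to 82.9 TPM in LN319 Luc Control KO. Levels of different tables, and of knockdown and knockout controls, are set side by side here without a test. The order within a line was alike at its low end. *CDC25C*, a phosphatase that activates the mitotic kinase CDK1, and *CENPE*, a kinetochore kinesin, were the 2 lowest in all 4 lines, at means of 12.5 and 12.6 TPM in A549 and 19.1 and 19.4 TPM in LN319, and within each line their levels differed by less than the spread of the replicates. At the high end stood *TOP2A*, the topoisomerase that untangles chromatids, in A549 (193 TPM), *CDC20*, the activator of the anaphase-promoting complex, in NCI-H23 (196 TPM) and LN319 (417 TPM), and *PTTG1*, which encodes securin, in LN229 (267 TPM). *PTTG1* has the near-identical copies *PTTG2* and *PTTG3P*, between which reads can be split, so its values are uncertain.

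The promoter windows of these genes are described next. RefSeq promoter windows (GRCh38.p14, 250 bases before to 50 after a transcription start) were found for 37 of the 44 genes, in 49 windows. 2 short motifs known from cell cycle promoters were searched on both strands, the cell cycle genes homology region (CHR, TTTGAA) bound by MuvB complexes, and the CCAAT box bound by NF-Y. A CHR match lay in 29 of the 49 windows (59.2%), against 15.2% of the 35116 windows of all genes, and a CCAAT match in 31 (63.3%), against 34.6%. Both motifs occurred in 21 windows (42.9%), against 5.9% of all windows, and 2 of the CHR matches overlapped a CCAAT match. With TTCGAA counted as well, 31 windows (63.3%) held a CHR-like match, against 16.4%. By gene, CHR was found in 7 of 11 kinetochore genes with a window, 2 of 3 checkpoint genes, 2 of 3 passenger genes and 3 of 4 condensin genes, and CCAAT in 7, 2, 3 and 1 of these. Such a match is a description of letters in a window and not a measured binding site. The members were named as mitotic genes, and both motifs are known from cell cycle promoters, so the higher shares can follow from that choice. Their link to the falls described below was not tested.

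The 150 bases before the start are printed 5′ to 3′ on the gene's strand for 9 members, namely the gene with the largest fall in the A549 double knockdown in each of the 8 groups, among those with a single window, and *CENPE*, with CHR and CCAAT matches of either strand in capitals (TTTGAA or TTCAAA, and CCAAT or ATTGG). *BUB1B* (chr15:40160919-40161068, plus strand), *INCENP* (chr11:62123861-62124010, plus), *ESPL1* (chr12:53268149-53268298, plus), *DLGAP5* (chr14:55191586-55191735, minus) and *MKI67* (chr10:128126424-128126573, minus) hold a CHR match, *NCAPH* (chr2:96335616-96335765, plus) holds a CCAAT match alone, and *CENPI* (chrX:101100908-101101057, plus), *MYBL2* (chr20:43666964-43667113, plus) and *CENPE* (chr4:103198344-103198493, minus) hold neither. *CENPI* and *MYBL2* changed by -2.24 and -2.05 on the log2 scale in the A549 double knockdown. Whether a match went with the size of a fall was not tested. Whether the annotated starts are those used in these cells was not examined either, and the *CENPI* stretch may not be its promoter.
BUB1B: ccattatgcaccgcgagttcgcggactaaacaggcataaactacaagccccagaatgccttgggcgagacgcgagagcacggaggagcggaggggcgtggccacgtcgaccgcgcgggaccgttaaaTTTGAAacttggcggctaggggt
INCENP: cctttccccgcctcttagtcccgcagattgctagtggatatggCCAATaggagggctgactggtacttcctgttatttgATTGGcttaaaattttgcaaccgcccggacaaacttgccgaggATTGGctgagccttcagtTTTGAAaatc
ESPL1: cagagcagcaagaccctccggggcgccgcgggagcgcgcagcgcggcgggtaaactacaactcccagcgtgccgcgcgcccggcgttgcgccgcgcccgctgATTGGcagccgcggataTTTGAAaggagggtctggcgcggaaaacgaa
DLGAP5: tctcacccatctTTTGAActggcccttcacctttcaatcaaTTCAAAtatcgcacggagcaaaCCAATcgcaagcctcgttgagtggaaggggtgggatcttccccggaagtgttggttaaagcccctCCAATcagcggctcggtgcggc
MKI67: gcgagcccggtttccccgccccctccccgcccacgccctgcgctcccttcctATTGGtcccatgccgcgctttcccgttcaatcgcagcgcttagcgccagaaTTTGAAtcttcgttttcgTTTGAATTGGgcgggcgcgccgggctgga
NCAPH: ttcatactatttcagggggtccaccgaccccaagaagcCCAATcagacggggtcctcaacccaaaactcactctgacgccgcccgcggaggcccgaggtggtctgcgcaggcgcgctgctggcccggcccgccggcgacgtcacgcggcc
CENPI: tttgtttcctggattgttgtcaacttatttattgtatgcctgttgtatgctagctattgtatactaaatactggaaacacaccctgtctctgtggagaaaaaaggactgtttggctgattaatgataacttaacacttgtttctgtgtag
MYBL2: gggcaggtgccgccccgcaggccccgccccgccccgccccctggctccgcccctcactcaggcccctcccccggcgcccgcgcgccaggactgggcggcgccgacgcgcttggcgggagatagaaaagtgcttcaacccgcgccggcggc
CENPE: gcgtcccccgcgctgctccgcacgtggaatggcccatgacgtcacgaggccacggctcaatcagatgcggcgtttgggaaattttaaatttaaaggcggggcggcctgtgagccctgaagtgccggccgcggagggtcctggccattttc
Counted from the start, the CHR match lay at -23 to -18 in *BUB1B*, -31 to -26 in *ESPL1* and -10 to -5 in *INCENP*.

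The first comparison asked how these genes responded when both paralogs were repressed at once. In A549 *TRA2A/B* DKD 41 of the 44 genes fell and 0 rose at an adjusted p under 0.05 (limma, Benjamini-Hochberg over all 16405 genes tested), against 16.3% of all genes lower and 14.3% higher. The median log2 fold change of the 44 genes was -1.46, beside 0.03 over all genes, and 33 of the 44 also changed by more than 1 on the log2 scale, a rule that 5.27% of all genes met in the lower direction. In NCI-H23 *TRA2A/B* DKD 42 of 44 fell and 0 rose, against 23.2% of all 16293 genes lower and 20% higher, with a median of -0.94 beside 0.02, and 19 of 44 changed by more than 1 (5.74% of all genes lower). All fold changes are differences of log2(TPM + 0.1) after scaling of the libraries. Whether a smaller share of cells in G2 and mitosis or less of each transcript per cell lies behind a lower level cannot be told apart in bulk RNA.

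**Figure D1:**
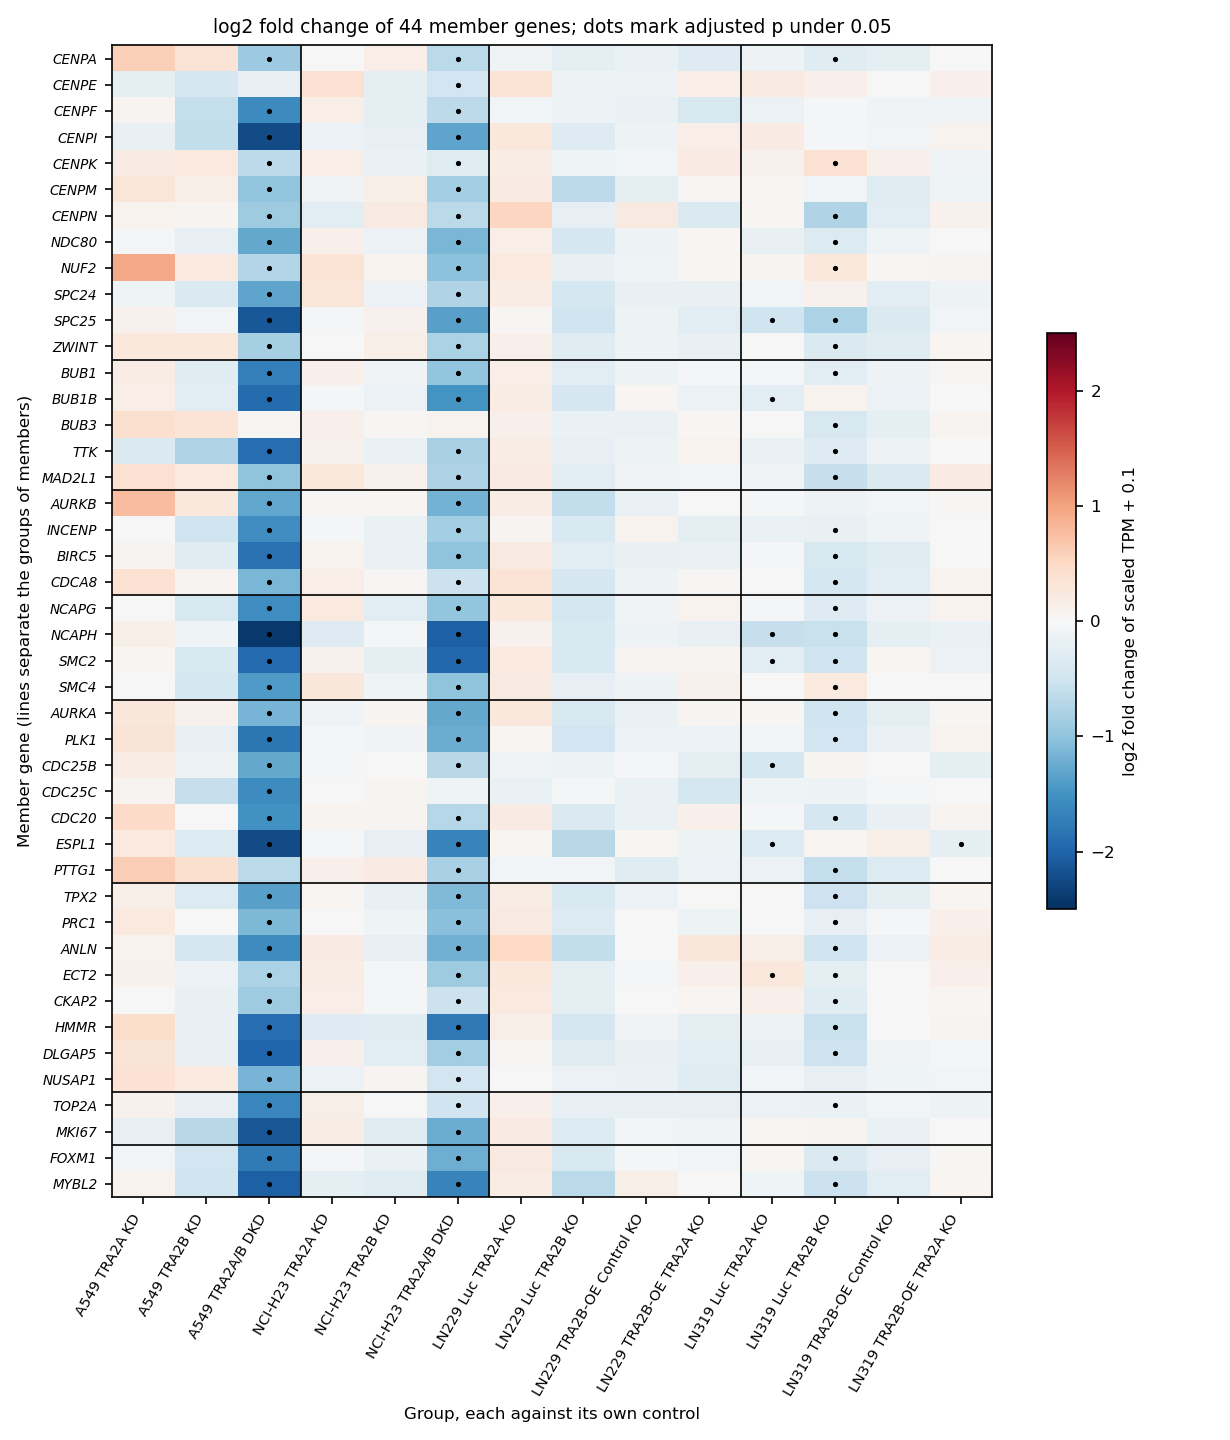
Log2 fold change (scaled TPM + 0.1) of the 44 genes (rows, in their groups) in 14 comparisons (columns, each against its own control), with dots at an adjusted p under 0.05. The 2 *TRA2A/B* DKD columns are blue with dots in all but a few rows (41 and 42 of 44), the single knockdown columns have no dots, and the LN319 Luc *TRA2B* KO column holds 32.

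Among the kinetochore genes 11 of 12 fell in A549 and 12 of 12 in NCI-H23, with group medians of -0.95 and -0.77. *CENPI*, a protein of the constitutive centromere network, stood at 29.4, 23.5 and 50.4 TPM in the 3 A549 Control KD libraries, at 26.6, 24.7 and 26.7 TPM in *TRA2A* KD, at 17.6, 20.9 and 22 TPM in *TRA2B* KD and at 9.02, 5.23 and 7.95 TPM in *TRA2A/B* DKD. The 3 double knockdown libraries lay below every library of the other groups, with a log2 fold change of -2.24 (SE 0.23, adjusted p = 4.5e-05) against Control KD. In NCI-H23 it went from 44.5, 43 and 46.4 TPM to 17.9, 18.2 and 24.4 TPM, again without overlap, a change of -1.31 (SE 0.10, adjusted p = 2.4e-06).

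*SPC25* encodes a subunit of the NDC80 complex, the main microtubule coupler of the kinetochore. In A549 it stood at 16.1, 15.8 and 17 TPM in Control KD, 13.7, 20.3 and 14.2 TPM in *TRA2A* KD, 17.2, 13.6 and 13.2 TPM in *TRA2B* KD and 3.48, 4.71 and 3.62 TPM in *TRA2A/B* DKD. The double knockdown lay apart from the other 3 groups, which overlapped one another, and the change against Control KD was -2.11 (SE 0.17, adjusted p = 1.1e-05). In NCI-H23 the controls held 27.2, 35.6 and 31.3 TPM and the double knockdown 12.5, 14.9 and 13 TPM, and the change was -1.37 (SE 0.17, adjusted p = 8.2e-05) with no overlap. The other 3 subunits of the complex fell too. The log2 fold changes, A549 first, were -1.28 and -1.15 for *NDC80*, -0.74 and -1.02 for *NUF2*, and -1.31 and -0.76 for *SPC24*. The centromeric histone *CENPA* (-0.91 and -0.68), *CENPF* of the outer kinetochore (-1.59 and -0.66), *ZWINT*, which links to the checkpoint proteins (-0.83 and -0.78), and the centromere network genes *CENPM* (-0.99 and -0.85), *CENPN* (-0.88 and -0.68) and *CENPK* (-0.65 and -0.30) passed the test in both lines.

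The kinesin *CENPE* was the exception in A549. Its TPM were 7.43, 7.78 and 22.5 in Control KD and 12.6, 8.66 and 9.09 in *TRA2A/B* DKD, and the difference was -0.21 (SE 0.30, adjusted p = 0.63). Replicate 3 of the controls was far above the other 2 and above all treated libraries, and without it the log2 fold change was 0.24 (SE 0.16, adjusted p = 0.28), of the opposite sign. In NCI-H23 *CENPE* stood at 13.7, 13.4 and 16.6 TPM in Control KD and 9.61, 12.3 and 13.1 TPM in the double knockdown. The groups did not overlap there and the change was -0.47 (SE 0.16, adjusted p = 0.031), a call that was lost in 5 of the other settings tried.

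That control library needs to be read with care for other members as well. A549 Control KD replicate 3 had the lowest median correlation with the other libraries of its line (0.837, against 0.872 for the next lowest), and 27 of the 44 genes were highest and 15 lowest of the 3 controls in it. Its part in the results was not tested beyond leaving it out. Without it 42 of the 44 genes fell in A549 *TRA2A/B* DKD and 0 rose (all genes 20.2% lower and 17.5% higher), and the medians of the kinetochore, checkpoint, passenger and condensin genes were -1.08, -1.40, -1.53 and -1.58.

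Of the 5 checkpoint genes 4 fell in each line, with group medians of -1.71 (A549) and -0.80 (NCI-H23). *BUB1B*, which encodes the checkpoint protein BUBR1, stood at 31.6, 36 and 48.5 TPM in A549 Control KD, 38.2, 39.8 and 37.4 TPM in *TRA2A* KD, 29.6, 31 and 27.7 TPM in *TRA2B* KD and 10.3, 11.6 and 9.62 TPM in *TRA2A/B* DKD. All double knockdown libraries were below all libraries of the other groups, and the change was -1.93 (SE 0.11, adjusted p = 1.2e-06). In NCI-H23 it was -1.49 (SE 0.07, adjusted p = 1.6e-07), from 69.1, 72.8 and 73.1 TPM to 29, 26.7 and 29.4 TPM, also without overlap. *BUB1*, the kinase that recruits the checkpoint proteins, fell (-1.71 and -0.99), and so did *MAD2L1*, which encodes the *CDC20* inhibitor MAD2 (-1.0 and -0.77).

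*TTK*, the kinase that starts checkpoint signalling, had 16.3, 16.4 and 53 TPM in A549 Control KD and 7.63, 6.32 and 6.48 TPM in *TRA2A/B* DKD. The groups did not overlap and the change was -1.90 (SE 0.31, adjusted p = 0.0010), but the control replicate named above was again the highest, and without it the value was -1.40 (SE 0.13, adjusted p = 2.7e-05). In NCI-H23 *TTK* fell from 25.9, 27.7 and 31.1 TPM to 14.5, 21 and 18.9 TPM, a change of -0.80 (SE 0.13, adjusted p = 0.00070). *BUB3*, the partner that carries *BUB1* and BUBR1 to the kinetochore, did not follow the group. It held 147, 149 and 129 TPM in A549 Control KD and 137, 154 and 165 TPM in *TRA2A/B* DKD, overlapping groups with a difference of 0.02 (SE 0.14, adjusted p = 0.92), whose sign turned without Control KD replicate 3 or without the third double knockdown library. In NCI-H23 the double knockdown libraries, at 169, 152 and 178 TPM, were all above the controls at 122, 150.4 and 146 TPM, with a difference after scaling of 0.10 (SE 0.05, adjusted p = 0.16) that became a call of higher on the TPM as deposited, after quantile normalization and with a filter of 5 TPM.

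**Figure D2:**
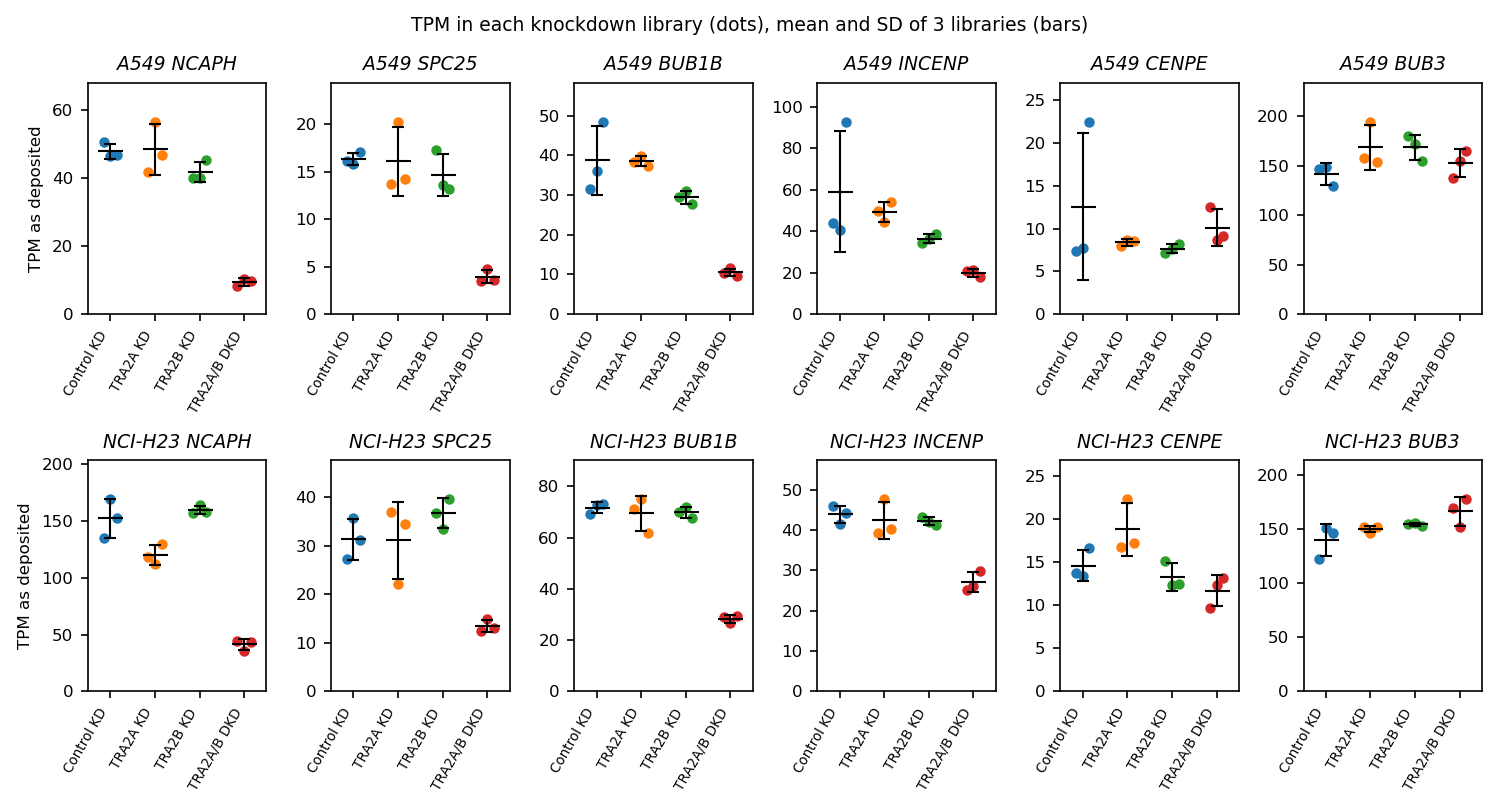
TPM as deposited of 6 member genes in each A549 (top) and NCI-H23 (bottom) library by group, dots for libraries, bars for the mean and SD of 3. *NCAPH*, *SPC25*, *BUB1B* and *INCENP* are lowest in *TRA2A/B* DKD in both lines, whereas *BUB3* is not, and *CENPE* in A549 has 1 control library at 22.5 TPM.

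All 4 chromosome passenger genes fell in both lines, with medians of -1.43 (A549) and -0.93 (NCI-H23). *BIRC5*, which encodes survivin, the subunit that docks the complex at centromeres, had 106, 102 and 157 TPM in A549 Control KD and 32.1, 37.5 and 34.4 TPM in *TRA2A/B* DKD. These groups were far apart and the change was -1.86 (SE 0.13, adjusted p = 4.8e-06). In NCI-H23 *BIRC5* went from 84.1, 92.7 and 86.4 TPM to 45.1, 49.4 and 51.7 TPM, a change of -1.0 (SE 0.07, adjusted p = 1.4e-06). *INCENP*, the scaffold of the complex, whose promoter stretch shown above holds 3 CCAAT matches beside its CHR match, stood at 43.9, 40.5 and 92.9 TPM in A549 Control KD, 49.5, 44.6 and 54.3 TPM in *TRA2A* KD, 34.2, 36.4 and 38.7 TPM in *TRA2B* KD and 20.6, 21.1 and 17.9 TPM in *TRA2A/B* DKD. The double knockdown was below all others and the change was -1.54 (SE 0.21, adjusted p = 0.00030). In NCI-H23 *INCENP* fell from 45.9, 41.6 and 44.2 TPM to 25.1, 26.2 and 29.8 TPM, a change of -0.85 (SE 0.10, adjusted p = 5.1e-05).

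*CDCA8*, which encodes borealin, moved least of the 4 genes. It stood at 26, 29.1 and 21.5 TPM in A549 Control KD and 11.8, 12.1 and 12.4 TPM in *TRA2A/B* DKD, and at 53.8, 64.3 and 62.2 and 45.2, 43.9 and 48 TPM in NCI-H23. Neither pair of groups overlapped, and the changes were -1.14 (SE 0.15, adjusted p = 0.00030) and -0.55 (SE 0.06, adjusted p = 3.2e-05). *AURKB*, the kinase of the complex, varied most among the A549 controls, at 99.7, 123 and 43.9 TPM, with Control KD replicate 3 the lowest. It fell to 31.9, 36.9 and 35.5 TPM in the A549 double knockdown, a change of -1.31 (SE 0.35, adjusted p = 0.016), and the change in NCI-H23 was -1.18 (SE 0.14, adjusted p = 6.2e-05).

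The 4 condensin genes had the lowest median of the 4 main groups in both lines, -1.75 (A549) and -1.48 (NCI-H23), and all 4 fell in each. This order of medians is a description over few genes and was not tested. Without A549 Control KD replicate 3 the condensin median was -1.58, close to the passenger median of -1.53. *NCAPH*, the kleisin subunit that closes the ring of condensin I, had the largest change of all 44 genes in each line. In A549 it stood at 50.4, 46.4 and 46.8 TPM in Control KD, 41.7, 56.6 and 46.8 TPM in *TRA2A* KD, 40.0, 40.0 and 45.3 TPM in *TRA2B* KD and 8.29, 10.4 and 9.64 TPM in *TRA2A/B* DKD. The double knockdown was far below the 3 other groups, and the change was -2.41 (SE 0.14, adjusted p = 1.2e-06). In NCI-H23 the values were 135, 169.7 and 152, then 119, 112 and 129, then 157, 164 and 158 and last 44.6, 35.9 and 43.5 TPM, with the same separation of the double knockdown and a change of -2.04 (SE 0.08, adjusted p = 2.5e-08).

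*SMC2* and *SMC4* encode the ATPase subunits shared by both condensins. *SMC2* fell from 26.1, 28.3 and 49.9 TPM to 10.1, 9.10 and 7.94 TPM in A549, a change of -1.95 (SE 0.17, adjusted p = 1.8e-05), and from 37.1, 32.4 and 33.3 TPM to 8.81, 10.4 and 10.1 TPM in NCI-H23, a change of -1.95 (SE 0.13, adjusted p = 1.1e-06). *SMC4* went from 113, 119 and 232 TPM to 63.4, 59.6 and 51.7 TPM in A549. In NCI-H23 the values were 158, 186 and 203 TPM and then 102, 93.1 and 109 TPM. Its groups did not overlap in either line, and the changes were -1.41 (SE 0.17, adjusted p = 0.00015) and -1.0 (SE 0.09, adjusted p = 1.2e-05). *NCAPG*, a HEAT-repeat subunit of condensin I, fell with log2 fold changes of -1.55 and -0.99.

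**Figure D3:**
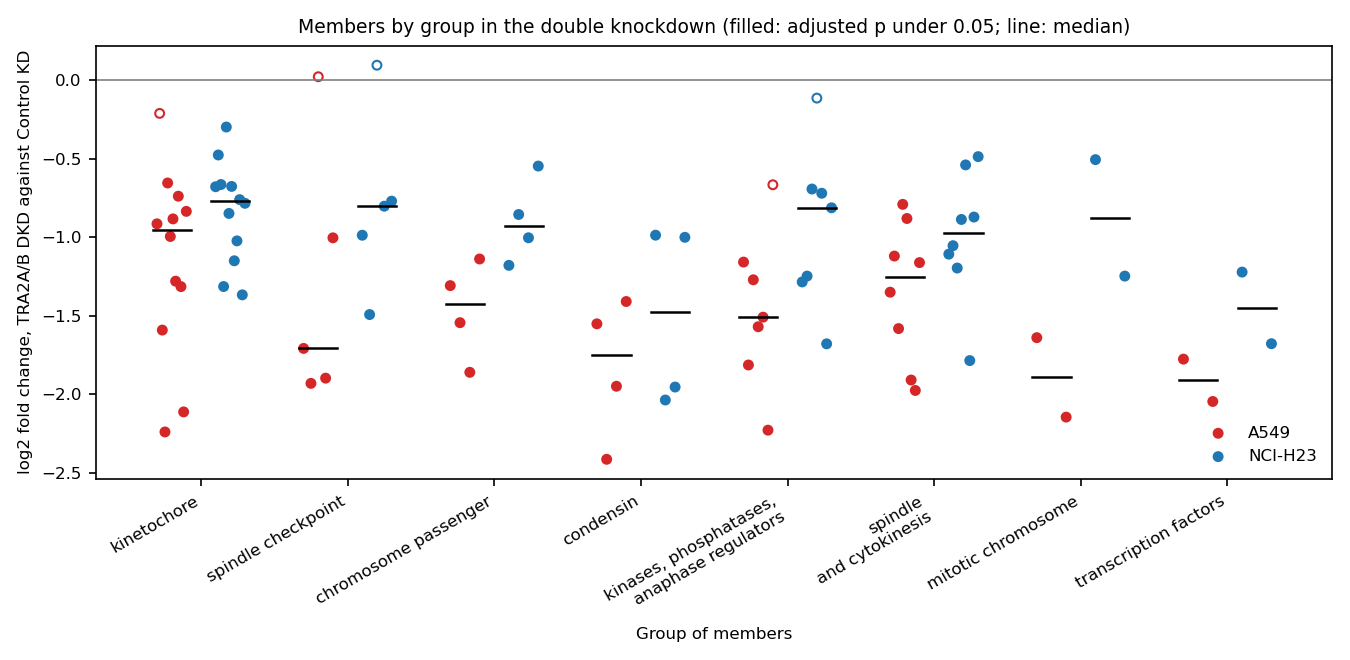
Log2 fold change of *TRA2A/B* DKD against Control KD (scaled TPM + 0.1) of each member by group, A549 in red and NCI-H23 in blue, filled where the adjusted p is under 0.05, with a line at the group median. The open symbols are *CENPE*, *BUB3* and *PTTG1* (A549, red) or *BUB3* and *CDC25C* (NCI-H23, blue), and the condensin medians lie at -1.75 and -1.48.

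The mitotic kinases, phosphatases and anaphase regulators fell in 6 of 7 cases in each line, with medians of -1.51 and -0.81. *ESPL1*, which encodes separase, the protease that cuts cohesin at anaphase, stood at 22.2, 19.1 and 30.8 TPM in A549 Control KD, 27.4, 25.3 and 23 TPM in *TRA2A* KD, 19.6, 15.4 and 17.7 TPM in *TRA2B* KD and 5.82, 4.42 and 5.52 TPM in *TRA2A/B* DKD. Again the double knockdown alone was apart, with a change of -2.23 (SE 0.15, adjusted p = 3.4e-06). In NCI-H23 separase transcripts fell from 42.5, 44.7 and 46.5 TPM to 16.6, 14.4 and 15.4 TPM, a change of -1.68 (SE 0.07, adjusted p = 6.2e-08). The kinases *PLK1* (-1.81 and -1.25) and *AURKA* (-1.16 and -1.28), the activator *CDC20* (-1.51 and -0.72) and the phosphatase *CDC25B* (-1.27 and -0.69) fell in both lines.

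The 2 exceptions in this group lay in different lines. Securin (*PTTG1*) had 149, 146 and 76.1 TPM in A549 Control KD and 65.4, 78.9 and 94.5 TPM in *TRA2A/B* DKD, which overlapped because of Control KD replicate 3, and the difference was -0.66 (SE 0.28, adjusted p = 0.099). Without that replicate it was -1.05 (SE 0.14, adjusted p = 0.00025), and in NCI-H23 it was -0.81 (SE 0.15, adjusted p = 0.0013). *CDC25C* fell in A549 with a log2 fold change of -1.57 (adjusted p = 3.6e-05). In NCI-H23 it stood at 11.1, 17.7 and 14.2 TPM in Control KD and 14.5, 12.8 and 16.5 TPM in the double knockdown, overlapping groups with a difference of -0.11 (SE 0.16, adjusted p = 0.60), whose sign turned on the TPM as deposited and without Control KD replicate 2.

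The 8 genes of the spindle and cytokinesis all fell in both lines (medians -1.26 and -0.97). *DLGAP5*, which encodes the spindle assembly factor HURP, went from 33, 34.6 and 35.6 TPM to 9.36, 10.4 and 7.88 TPM in A549. In NCI-H23 the values were 63.1, 65.5 and 68.6 TPM and then 36.5, 40.9 and 42.9 TPM. The groups did not overlap, and the changes were -1.98 (SE 0.12, adjusted p = 1.7e-06) and -0.87 (SE 0.06, adjusted p = 2.3e-06). The spindle factor *HMMR* fell with log2 fold changes of -1.91 and -1.79, and the Aurora A activator *TPX2* with -1.35 and -1.11. The genes of the microtubule-binding proteins *PRC1* (-1.12 and -1.05), *CKAP2* (-0.88 and -0.54) and *NUSAP1* (-1.16 and -0.49) fell as well. The cytokinesis genes *ANLN*, encoding the actin-binding anillin, and *ECT2*, encoding the exchange factor for RhoA, had changes of -1.58 and -0.79 in the A549 cells and of -1.20 and -0.89 in the NCI-H23 cells.

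*MKI67*, whose protein Ki-67 coats mitotic chromosomes, stood at 72.2, 63.5 and 216 TPM in A549 Control KD and 26.8, 25.9 and 19.2 TPM in *TRA2A/B* DKD. The groups did not overlap, and the change was -2.15 (SE 0.32, adjusted p = 0.00060), or -1.66 (SE 0.18, adjusted p = 6.7e-05) without Control KD replicate 3. In NCI-H23 the change was -1.25 (SE 0.16, adjusted p = 0.00013), from 70.1, 61.7 and 56.7 TPM to 25.3, 33.7 and 29.5 TPM. *TOP2A* fell too (-1.64 and -0.50).

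The transcription factors moved with the other groups. *MYBL2* fell from 79.6, 83.4 and 106 TPM to 21.4, 25.4 and 21.5 TPM in A549. In NCI-H23 the values were 163, 168 and 152 TPM and then 53.1, 58 and 57 TPM. The groups were clearly apart, with changes of -2.05 (SE 0.11, adjusted p = 1.2e-06) and -1.68 (SE 0.09, adjusted p = 1.8e-07). *FOXM1* fell with log2 fold changes of -1.78 and -1.22.

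Single knockdowns gave 0 calls among the 44 genes in either line with limma. The question was whether one paralog alone was enough to move these genes. In A549 *TRA2A* KD 12 of the 44 had an unadjusted p under 0.05, beside 1851 of all 16405 genes. The median log2 fold change was 0.15, and 0.158% of all genes were called lower and 0.0488% higher. Shares called, here and below, are at an adjusted p under 0.05 and are no measure for counts at an unadjusted p. In A549 *TRA2B* KD 17 of 44 had an unadjusted p under 0.05, beside 2221 of all genes, with a median of -0.20 (all genes called 0.061% lower and 0.28% higher). The counts in NCI-H23 were 13 of 44 with *TRA2A* KD, beside 2218 of all 16293 genes (median 0.08, all genes called 0.601% lower and 0.374% higher). With *TRA2B* KD they were 7 of 44, beside 1729 of all genes (median -0.10, all genes called 0.0368% lower and 0.16% higher). These comparisons share their controls with the double knockdown. The smallest adjusted p of the 4 comparisons belonged to *NCAPH* in NCI-H23 *TRA2A* KD, whose libraries were all below the controls, with a difference of -0.33 (SE 0.08, adjusted p = 0.078). It was followed by *NUF2* in A549 *TRA2A* KD, at 39.7, 40.2 and 43.6 TPM against 21.4, 28.9 and 21.1 TPM in Control KD, all above the controls, with a difference of 0.95 (SE 0.18, adjusted p = 0.083).

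Whether the double knockdown differed from the sum of the single ones was tested as the double minus both single log2 fold changes. In A549 41 of the 44 genes were called lower than the sum and 0 higher, against 8.89% of all genes lower and 5.84% higher, and the median of the members was -1.45. In NCI-H23 it was 39 lower and 0 higher, against 12.8% and 8.23% of all genes, with a median of -0.96. On the TPM as deposited, where the median of all genes in this A549 comparison was 0.256 in place of -0.05, 30 members were called lower and 0 higher, beside 617 lower and 1643 higher of all 16405 genes. The difference from the sum was -2.46 (SE 0.19, adjusted p = 6.3e-05) for *NCAPH* in A549, and -1.67 (SE 0.11, adjusted p = 6.6e-06) in the other line. It was -2.14 and -1.46 for *SPC25*, -1.81 and -1.30 for *BUB1B*, and -2.36 and -1.25 for *AURKB*. For *AURKB* in A549 Control KD replicate 3 was the lowest control, and the value without it is not given here. Without that library the median difference of the passenger genes was -1.54, in place of -1.61. The members without such a call were *CENPE* (0.45), *TTK* (-0.77) and *MKI67* (-1.25) in A549, and for NCI-H23 *CENPE* (-0.60), *CENPK* (-0.29), *BUB3* (-0.06), *CDC25C* (-0.16) and *NUSAP1* (-0.39). Without A549 Control KD replicate 3 the A549 calls were 43 of 44 lower and 0 higher (all genes 13% lower and 9.21% higher). They then included *TTK* and *MKI67*. *BUB3* in A549 was called (-0.71 (SE 0.19, adjusted p = 0.032)) although the double knockdown itself left it level with the controls, since its values in both single knockdowns, 158, 195 and 154 and 179, 172 and 154 TPM, lay above those of Control KD.

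The other genes of the same complexes were counted from a list of 46 named genes. In A549 *TRA2A/B* DKD 33 of 46 fell and 2 rose (median -0.88), against 16.3% of all genes lower and 14.3% higher. In NCI-H23 35 fell and 2 rose (median -0.61), against 23.2% of all genes lower and 20% higher. The same shares stand beside the counts by list that follow. The other 22 kinetochore genes gave 16 lower and 1 higher in A549, or 18 lower and 1 higher in NCI-H23. The largest changes were in *OIP5* (-2.33 and -1.12) and *HJURP* (-1.88 and -0.91), which load *CENPA* at centromeres, and the gene that rose in both lines was *MIS12*, a subunit of the complex that links *NDC80* to the centromere (in A549 0.71 (SE 0.19, adjusted p = 0.016), in NCI-H23 0.54 (SE 0.15, adjusted p = 0.015)). Of 9 other checkpoint genes 7 fell in each line, led in both by *KNTC1*, a subunit of the RZZ complex (-1.75 and -1.16), and *SGO1*, the protector of centromeric cohesin (-1.54 and -1.27). All 4 other condensin genes fell in each line, *NCAPG2* of condensin II most (-1.77 and -1.59). Of 11 cohesin genes 6 fell and 1 rose in each line. The cohesin regulator *PDS5B* fell with -1.46 and -1.0, while *WAPL*, which releases cohesin, rose in A549 (0.68, adjusted p = 0.0029) and the cohesin subunit *STAG2* rose in NCI-H23 (0.42, adjusted p = 0.029).

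LN319, a glioma line, was the only other line in which members passed the test with all libraries. In Luc *TRA2B* KO 29 of the 44 genes fell and 3 rose, against 24% of all 19303 genes lower and 18.6% higher, with a median of -0.32 beside 0.02 over all genes. None of the 32 changed by more than 1 on the log2 scale. *TRA2B* itself fell from 90.2, 83.5 and 89.1 TPM to 30.6, 32.4 and 29.3 TPM. The share of transcripts from mitochondrial genes was 12.1 to 12.8% in the Luc Control KO libraries and 18.3 to 20.6% in Luc *TRA2B* KO, and its part in these values was not tested. After quantile normalization the split of members was 23 lower and 8 higher, beside 4408 lower and 3455 higher of all 19303 genes. On the TPM as deposited, where the median of all genes moved to 0.12, it was 24 lower and 4 higher, beside 3581 lower and 4639 higher of all genes.

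By group, 4 of 5 checkpoint genes fell in LN319 Luc *TRA2B* KO (median -0.32), as did 3 of 4 passenger genes (-0.29), 3 of 4 condensin genes (-0.41), 7 of 8 genes of the spindle and cytokinesis (-0.40) and 5 of 12 kinetochore genes (-0.06). *NCAPH* stood at 78.3, 76.3 and 79.1 TPM in Luc Control KO and 55, 59 and 57.4 TPM in Luc *TRA2B* KO, without overlap and with a change of -0.55 (SE 0.06, adjusted p = 4.0e-05). *SMC2* fell from 50.3, 54.5 and 56.3 TPM to 39.6, 42.1 and 41.7 TPM, a change of -0.49 (SE 0.07, adjusted p = 0.00014). Both condensin subunits were lower in every knockout library than in any control. *DLGAP5* (90.9, 93.5 and 92.3 TPM to 68.3, 72 and 69 TPM) had a change of -0.51 (SE 0.07, adjusted p = 0.00016), and *TPX2* (152, 147 and 155 TPM to 111, 117 and 114 TPM) of -0.52 (SE 0.07, adjusted p = 0.00017). The largest fall was that of *SPC25*, -0.79 (SE 0.15, adjusted p = 0.00099), followed by *CENPN* with -0.75. *BUB3*, which did not fall in the double knockdowns, fell here with a change of -0.39 (SE 0.08, adjusted p = 0.0020).

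The 3 genes that rose in LN319 Luc *TRA2B* KO were *CENPK*, *NUF2* and *SMC4*. *CENPK* stood at 42.7, 46.8 and 42.9 TPM in Luc Control KO and 68.9, 59.5 and 59 TPM in the knockout, all above the controls, a change of 0.39 (SE 0.08, adjusted p = 0.0024). *NUF2* went from 139.6, 153 and 147 TPM to 201, 194 and 176 TPM, a change of 0.27 (SE 0.07, adjusted p = 0.010), and *SMC4* from 303, 355 and 327 TPM to 428, 421 and 406 TPM, a change of 0.24 (SE 0.07, adjusted p = 0.018). These groups too did not overlap, but without a filter on low values the adjusted p was 0.053 for *NUF2* and 0.095 for *SMC4*. The call of *SMC4* was also lost without Luc Control KO replicate 1 (adjusted p = 0.079) and without Luc *TRA2B* KO replicate 1 (adjusted p = 0.064). Within condensin *SMC2* and *SMC4*, which form 1 heterodimer as proteins, thus had changes of opposite sign, and within the NDC80 complex *NUF2* rose while *NDC80* (-0.35) and *SPC25* fell and *SPC24* (0.10) did not pass the test.

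**Figure D4:**
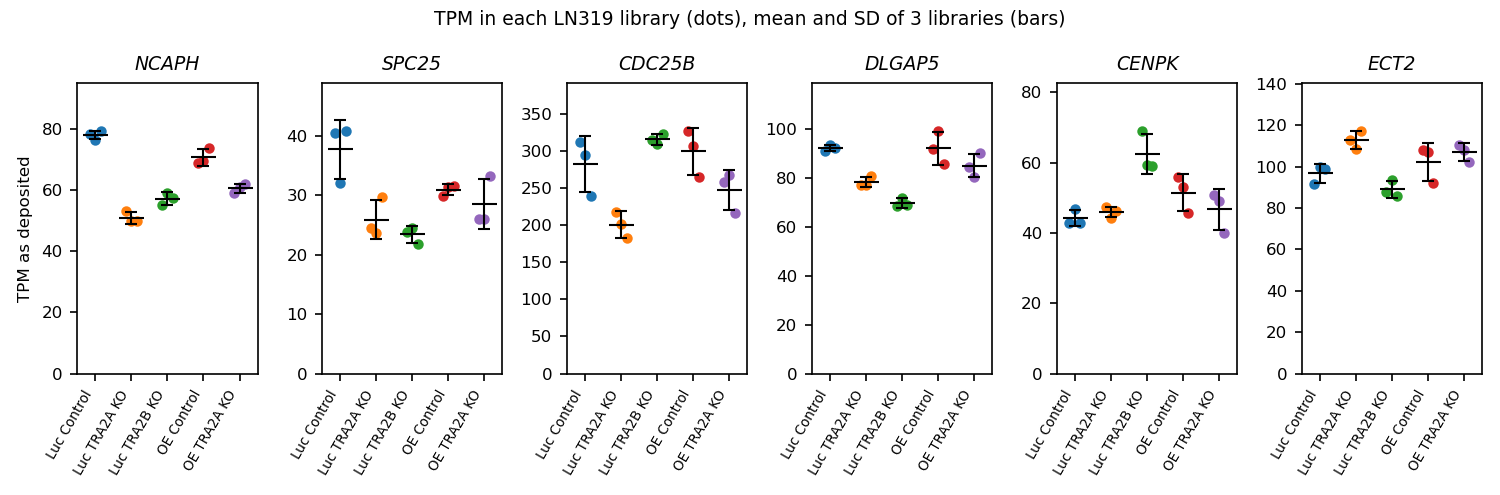
TPM as deposited of 6 member genes in each LN319 library by group (Luc Control KO, Luc *TRA2A* KO, Luc *TRA2B* KO, TRA2B-OE Control KO and TRA2B-OE *TRA2A* KO), dots for libraries, bars for the mean and SD of 3. *NCAPH* and *SPC25* are lower in both Luc knockouts, *CDC25B* in *TRA2A* KO, *DLGAP5* most in *TRA2B* KO, *CENPK* is higher in *TRA2B* KO, and *ECT2* is higher in *TRA2A* KO.

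In LN319 Luc *TRA2A* KO 6 of the 44 genes fell and 1 rose, against 7.44% of all genes lower and 6.82% higher, and the median was -0.06 beside 0.01 over all genes. *TRA2A* went from 101, 107 and 113 TPM to 33.9, 34.3 and 38.3 TPM. The genes that fell were *NCAPH*, *SPC25*, *SMC2*, *ESPL1*, *CDC25B* and *BUB1B*. *NCAPH* stood at 53.2, 49.8 and 49.9 TPM in the knockout, all below the controls given above, a change of -0.57 (SE 0.06, adjusted p = 0.00015). *ESPL1* fell from 62.3, 67.1 and 64.1 TPM to 51.3, 50.6 and 46.7 TPM, a change of -0.34 (SE 0.05, adjusted p = 0.0011). *CDC25B* went from 313, 295 and 239.9 TPM to 218, 202 and 182 TPM, a change of -0.45 (SE 0.09, adjusted p = 0.0055). None of these groups overlapped. *BUB1B* fell from 81.2, 90.1 and 83 TPM to 69.2, 64 and 71.6 TPM, a change of -0.27 (SE 0.06, adjusted p = 0.0082), and the changes of *SPC25* and *SMC2* were -0.50 (SE 0.15, adjusted p = 0.037) and -0.27 (SE 0.07, adjusted p = 0.019). The gene that rose was *ECT2*, at 91.4, 99.8 and 99 TPM in the controls and 113, 108 and 117 TPM in the knockout, all above the controls. Its change was 0.26 (SE 0.06, adjusted p = 0.015), a call that was lost without Luc Control KO replicate 1 or Luc *TRA2A* KO replicate 3.

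Against the same controls the *TRA2B* KO values of these genes were different in part. *ESPL1* (0.05), *CDC25B* (0.06) and *BUB1B* (0.10) did not pass the test in Luc *TRA2B* KO, and *ECT2* fell there with a change of -0.23 (SE 0.06, adjusted p = 0.011). *NCAPH*, *SPC25* and *SMC2* fell in both knockouts. Both knockouts share their controls, and they were not tested against each other.

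In LN319 with TRA2B-OE the *TRA2A* KO was compared with TRA2B-OE Control KO, to ask whether extra *TRA2B* altered the response. *TRA2A* was at 93.7, 91.4 and 88.2 TPM in the TRA2B-OE controls and 50.7, 51.3 and 42.4 TPM after *TRA2A* KO. This was a smaller fall than in the Luc cells, and its part in the results was not tested. Of the 44 genes 1 fell and 0 rose, against 1.29% of all genes lower and 1.48% higher (median 0.02). That gene was *ESPL1*, from 83.2, 72.7 and 72 TPM to 63.3, 66.6 and 57 TPM, without overlap and with a change of -0.23 (SE 0.05, adjusted p = 0.035), a call lost in 7 of the other settings tried. *NCAPH* stood at 68.7, 69.4 and 73.6 TPM and 59, 60.8 and 61.8 TPM, without overlap, with a difference of -0.16 (SE 0.06, adjusted p = 0.17). The difference between the responses to *TRA2A* KO in TRA2B-OE and in Luc cells gave 0 calls among the members with limma (2 of 44 at an unadjusted p under 0.05, 0% of all genes lower and 0.0207% higher), and the smallest p was that of *NCAPH*, with a difference of 0.41 (SE 0.09, adjusted p = 0.27). TRA2B-OE Control KO against Luc Control KO gave 0 calls too, with a median of -0.13 (all genes called 2.16% lower and 2.16% higher). There 22 of the 44 had an unadjusted p under 0.05. For this comparison and the difference of responses, the count over all genes at an unadjusted p is not given here.

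In LN229 no member passed the test in any comparison with all libraries, and 1 library of each control group stood apart. Luc Control KO replicate 1 was the lowest of its 3 libraries for 44 of the 44 genes, at a median of 0.569 of the mean of the other 2, and TRA2B-OE Control KO replicate 1 was the lowest for 43 of 44, at 0.728. *ANLN*, for example, stood at 84.3, 182 and 190.2 TPM in Luc Control KO and at 103, 177 and 175 TPM in TRA2B-OE Control KO. *S100B*, a glial gene that is no member, was at 834, 276 and 255 TPM and 496, 169 and 165 TPM in the same libraries, so that replicate 1 also differed in a gene outside the cell cycle. It was highest in replicate 1 of Luc *TRA2A* KO (319, 139 and 116 TPM) and of TRA2B-OE *TRA2A* KO (133, 66.1 and 56.5 TPM) too. The part of these libraries in the results was not tested beyond leaving out the control ones. In LN319 Luc Control KO, by comparison, the lowest of the 3 libraries was replicate 1 for 19 genes, replicate 2 for 19 and replicate 3 for 6. Of the targeted genes, *TRA2B* was at 202, 232 and 234 TPM in Luc Control KO and 143, 149.8 and 148 TPM in Luc *TRA2B* KO, and *TRA2A* in the TRA2B-OE cells was at 84.3, 74.8 and 81.5 TPM and, after *TRA2A* KO, 75.6, 68.8 and 65.4 TPM, a difference of -0.22 (SE 0.07, adjusted p = 0.079).

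**Figure D5:**
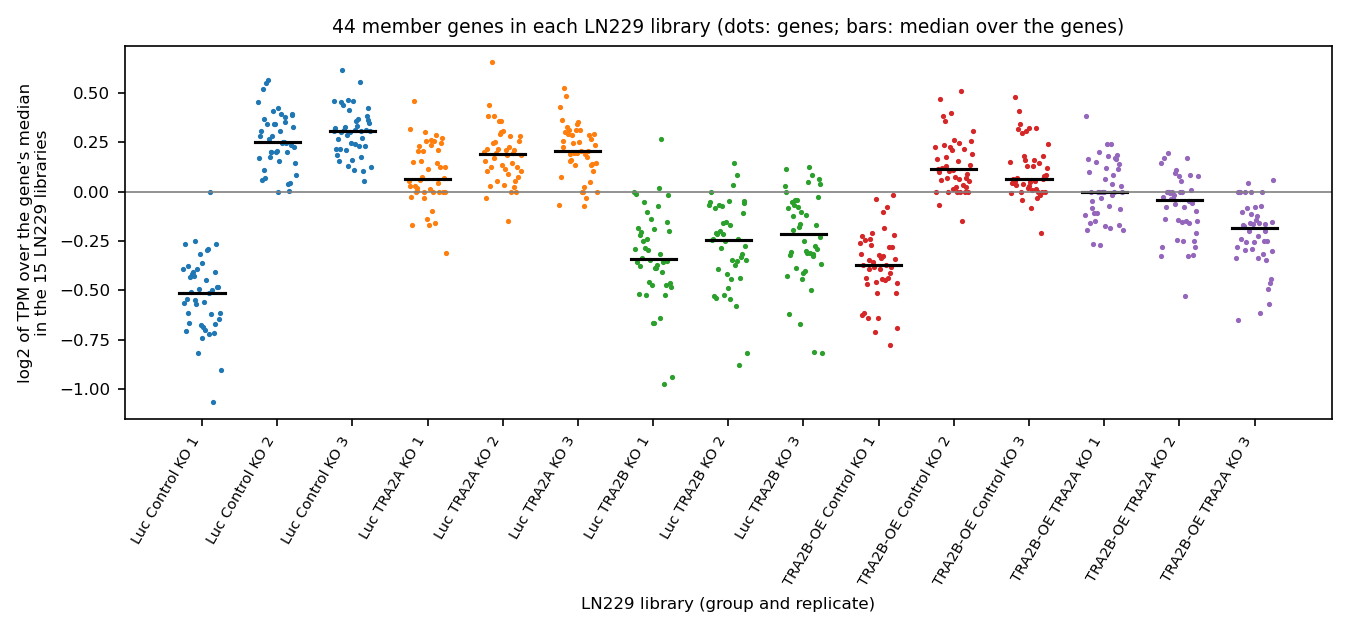
Log2 of TPM over the gene's own median in the 15 LN229 libraries, for the 44 genes (dots) in each library, with the median over the genes as a bar. Luc Control KO replicate 1 (-0.51) and TRA2B-OE Control KO replicate 1 (-0.37) lie below the other 2 libraries of their groups, and the 3 Luc *TRA2B* KO libraries lie between -0.34 and -0.21.

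With all libraries of LN229 limma called 0 of 44 genes in Luc *TRA2B* KO, with a median of -0.33 (all genes called 0.341% lower and 0.227% higher). At an unadjusted p under 0.05 there were 6 of the 44, beside 4302 of all 18490 genes. Without replicate 1 of both control groups, an alternative chosen after the values were seen, 41 of the 44 fell and 0 rose, against 16.1% of all genes lower and 11.6% higher, with a median of -0.62 beside 0.00. Leaving out Luc Control KO replicate 1 alone gave 36 lower, against 12.2% of all genes. *ESPL1* stood at 37.7, 80.8 and 91.5 TPM in Luc Control KO and 39.9, 41.6 and 44 TPM in Luc *TRA2B* KO, so the knockout libraries lay above control replicate 1 and far below the other 2. Its log2 fold change was -0.69 (SE 0.29, adjusted p = 0.18) with all libraries and -1.09 (SE 0.11, adjusted p = 0.00010) without the 2 libraries. *AURKB*, at 58.8, 137 and 143 TPM and 75.4, 72.1 and 65.1 TPM, showed the same arrangement and had -0.61 (SE 0.31, adjusted p = 0.25) and -1.04 (SE 0.12, adjusted p = 0.00021). *CENPM* went from 43.1, 94.8 and 79.5 TPM to 46.1, 45.6 and 42.9 TPM, with -0.66 and -1.01 (SE 0.11, adjusted p = 0.00011). The 3 genes with no call without the 2 libraries were *CENPE* (-0.41), *CDC25C* (-0.27) and *PTTG1* (-0.17). Markers outside the cell cycle went with this arrangement. The 3 Luc *TRA2B* KO libraries held 1035, 949.6 and 937 TPM of *S100B*, 14.2, 14 and 13.1 TPM of *OLIG2* and 86.8, 86.3 and 85.9 TPM of *KRT18*. The Luc controls held 14.2, 7.37 and 7.79 TPM of *OLIG2* and 84.6, 139 and 132 TPM of *KRT18*, so that the knockout libraries were close to control replicate 1 and apart from the other 2 in these genes. Of the other 7 markers, *KRT19*, *EPCAM* and *CDH1* were under 1 TPM in these groups, *SOX2* (90.8, 77.4 and 77.6 TPM in the controls and 81.4, 85 and 87.1 TPM in the knockout) and *NES* (259, 273 and 286 and 246, 256 and 257 TPM) lay on the side of replicate 1 by smaller margins, *KRT8* was above all 3 controls and *GFAP* overlapped them. The part of this in the fall of the members was not tested. Which of the control libraries better stands for unperturbed LN229 cells cannot be told from these values.

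The other LN229 comparisons moved less. In Luc *TRA2A* KO 0 of 44 were called (all genes 1.83% lower and 1.86% higher), and 1 had an unadjusted p under 0.05, beside 3996 of all 18490 genes. The direction of the median depended on the 2 libraries. It was 0.18 with 38 of 44 genes positive, and -0.09 with 36 of 44 negative without them. In that fit *CENPA* (-0.38), *NUSAP1* (-0.31) and *CDC25B* (-0.28) fell and *CENPN* (0.36) rose, against 1.5% of all genes lower and 1.74% higher. In TRA2B-OE *TRA2A* KO 0 were called (2 at an unadjusted p under 0.05, median -0.07, all genes 3.64% lower and 2.43% higher), and 16 fell and 0 rose without the 2 libraries (5.04% and 3.04% of all genes, median -0.30), *CENPN* most with -0.63. The difference of the 2 responses gave 0 calls with limma (1 at an unadjusted p under 0.05, 0% of all genes in either direction), and without the 2 libraries *CENPN* alone was called, at -0.98 (SE 0.11, adjusted p = 0.017), against 0.0386% of all genes lower and 0% higher. TRA2B-OE Control KO against Luc Control KO gave 0 calls (median -0.12, all genes 0.233% lower and 0.795% higher) and also 0 without the 2 libraries. With all libraries 1 member had an unadjusted p under 0.05, beside 2629 of all genes. For TRA2B-OE *TRA2A* KO and the difference of responses, the count over all genes at an unadjusted p is not given here.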

How the data were processed

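RNA of 54 samples in 18 groups of 3 was measured. Per the methods, the authors estimated transcript abundance with kallisto 0.48.0 on Gencode v34 (GRCh38). The submitters' notes also name STAR 2.7.3 with no stated role here. The authors deposited TPM per gene symbol for each cell line, neither scaled between libraries nor log-transformed. TPM keep no depth, so the spread of the 3 libraries of a group is the measure of precision.

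A limma model (version 3.58.1, R 4.3.3) was fitted per line. A gene needed 1 TPM or more in 4 or more libraries. Libraries were scaled by a trimmed mean of M values without weights (trims of 30% and 5%), and log2(TPM + 0.1) of all groups entered the fit, with moderated variances that follow a trend with the mean. Two-sided p were adjusted by Benjamini-Hochberg over all genes tested, with a threshold of 0.05 and, as a second rule, an absolute log2 fold change above 1. The adjusted p in the text are from this fit. Pseudocounts understate changes of low genes. The method was also run on simulated data, with an outcome not given here. Noise was drawn separately for each gene there, so a shift shared by the members in a library was not covered.

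The members and lists were chosen with earlier results of these data known. Values in every library are given for 2 members of largest and 1 of smallest change in the A549 double knockdown per main group, 1 per other group, the called members of smallest p elsewhere, and members against the common direction. *AURKB*, *CENPM*, *ANLN* and *NUF2* were added after their values were seen. Promoter windows were searched with Python 3.11.15 with pandas 2.3.3, and figures matplotlib 3.10.9. Alternatives were other pseudocounts (0.5 and 1), filters, scalings, fits, the replicate block and leaving out libraries. Replicate numbers were not taken to pair the samples, and splicing was not analysed here.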

Additional observations from a re-analysis of the deposited data

Results flagged for a closer look

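Of the members, *HMMR* differed in opposite ways between the 2 lung lines under the same single knockdown, with every A549 library above and every NCI-H23 library below its controls after scaling. In *TRA2A* KD it had a log2 difference of 0.45 in A549 and -0.33 in NCI-H23, where 27.6, 25.8 and 27.5 TPM lay below 31.1, 34.5 and 37.5 TPM. Such separation was common. After scaling, 1156 of all 16405 genes and 13 of the 44 members lay wholly above the controls in A549 *TRA2A* KD. In NCI-H23 *TRA2A* KD 1369 of all 16293 genes and 3 members lay wholly below. How many of all genes did both was not counted. *TOP2A* in *TRA2B* KD met the same description on the TPM as deposited only, and after scaling it did not differ in opposite ways. It had -0.20 in A549, with 154, 159.8 and 154 TPM below 164, 178 and 237 TPM, and -0.00032 in NCI-H23, where the libraries were above the controls on the TPM as deposited but not after scaling. None of these 4 values passed the adjusted threshold, and the differences between the lines were not tested, since the tables were normalized separately.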

How the results depend on the processing

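The count of members called in A549 *TRA2A/B* DKD (41) ranged from 38 to 42 when 1 library was left out, and that of NCI-H23 (42) from 40 to 42. The tests of double minus single knockdowns gave 33 to 43 for A549 (41 with all libraries) and 39 to 40 for NCI-H23 (39). With a log2 fold change above 1 also required, NCI-H23 *TRA2A/B* DKD had 19 calls and its double minus singles 20, while LN319 Luc *TRA2A* KO, Luc *TRA2B* KO and TRA2B-OE *TRA2A* KO had 0 each. LN319 Luc *TRA2A* KO (7) ranged from 5 to 8 and Luc *TRA2B* KO (32) from 26 to 30 without 1 library.

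LN229 depended on its control replicates 1. Without both of them 41 members were called in Luc *TRA2B* KO, 4 in Luc *TRA2A* KO, 16 in TRA2B-OE *TRA2A* KO and 1 in the difference of responses, against 0 in each with all libraries. Without 1 library the ranges were 0 to 36 in Luc *TRA2B* KO and 0 to 1 in TRA2B-OE *TRA2A* KO. The 1 came without TRA2B-OE Control KO replicate 1 (all genes 1.79% lower and 1.02% higher). In A549 *TRA2A* KD the range was 0 to 1, with the 1 without Control KD replicate 2 (all genes 0.234% lower and 0.271% higher). In LN319 TRA2B-OE Control KO it was 0 to 3, with the 3 without its own replicate 3 (all genes 5.53% lower and 3.55% higher). Quantile normalization gave 2 there, beside 399 lower and 472 higher over all genes. A pseudocount of 0.5 or 1 gave 1, with calls over all genes not counted. In LN319 TRA2B-OE *TRA2A* KO the range was 0 to 1, a fit of only the groups compared gave 0 and quantile normalization gave 3, beside 323 lower and 310 higher over all genes. The causes were not tested.

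Replicate numbers were not taken to pair the samples, since deviations of same-numbered libraries correlated between -0.15 and 0.21 and in no comparison were all pairs over 0.1. That rule cannot show a likeness confined to 1 replicate number. The largest values, 0.21 and 0.16, belonged to replicate 1 of LN229, in TRA2B-OE Control KO and Luc *TRA2A* KO against Luc Control KO. With the replicate block LN319 TRA2B-OE Control KO had 11 calls, all lower, in place of 0, and Luc *TRA2B* KO had 33. Calls over all genes were not counted under the block, so no share stands beside these counts. A549 *TRA2A/B* DKD kept a count of 41 and NCI-H23 of 42. The block moved no other count by over 1.5 times.

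Of 47 single gene results, 5 values turned sign. These were *CENPE* in A549 *TRA2A/B* DKD without Control KD replicate 3 (0.24, the range without 1 library being -0.43 to 0.24), *BUB3* there without Control KD replicate 3 or *TRA2A/B* DKD replicate 3 (-0.11 and -0.02, range -0.11 to 0.11), and *CDC25C* in NCI-H23 *TRA2A/B* DKD on the TPM as deposited (0.043) or without Control KD replicate 2 (0.029, range -0.24 to 0.029). A further 18 values lost their call and 4 gained one, while 631 kept direction and side of the threshold. The TPM as deposited moved the median of all genes by over 0.1, to 0.17 in NCI-H23 *TRA2A/B* DKD, 0.12 in NCI-H23 *TRA2B* KD, -0.12 in A549 *TRA2A* KD, 0.12 in LN319 Luc *TRA2B* KO and 0.256 in A549 double minus singles. They raised the share of higher calls among all genes from 46.6 to 57% in A549 *TRA2A/B* DKD, from 46.2 to 63% in NCI-H23 and from 43.7 to 56.4% in LN319 Luc *TRA2B* KO, and in double minus singles from 39.6 to 72.7% (A549) and from 39.1 to 49.5% (NCI-H23), and lowered it from 47.8 to 33.9% in LN319 Luc *TRA2A* KO. TPM hold no depth, so counting error could not be given for any value.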
